A study of Mus musculus with 6 samples.

Results

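The cytosolic ribosomal protein genes of the mouse were examined one by one in the ATAC-seq peaks of untreated V6.5 mouse embryonic stem cells (mESCs). ATAC-seq uses the Tn5 transposase to cut and tag accessible DNA, and a peak is a region where such cuts pile up. The members were selected by gene symbol among the protein-coding RefSeq genes on GRCm38, which gave 76 genes, 46 of the large and 30 of the small ribosomal subunit, out of 21774 protein-coding genes. They were then split by the measured distance from a transcription start site (TSS) to the nearest peak, so that this split describes the genes and tests nothing. A peak lay within 1 kb of a TSS in 41 genes, 16 genes had their nearest peak between 1 and 5 kb away, and 19 genes had none within 5 kb. Beside the promoter peaks, 31 of the 76 genes had a peak in the 2 kb past their annotated end, and at 14 of these no promoter peak was listed.

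Ribosomal proteins pair with ribosomal RNA to build the small subunit, which decodes the mRNA, and the large subunit, which joins the amino acids. The proteins are needed in matched amounts, their genes are short and highly transcribed in growing cells, and many of them host small nucleolar RNA genes in their introns. Transcription of many of them starts at a cytosine within a pyrimidine stretch, the 5′-terminal oligopyrimidine (TOP) motif, through which translation of the mRNA responds to growth signals. In cultured stem cells these genes are among the most active housekeeping genes.

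The series holds 6 samples: 2 replicates of untreated V6.5 mESCs, and 2 replicates of mESCs with a ZBTB21 degron for each of 2 times of IAA, 0 h and 6 h. IAA is the auxin that triggers degradation of the tagged protein, the degron cells are clones that carry ZBTB21 fused to the degron and to GFP, and they were treated with doxycycline. The 1 peak list analysed is that of the untreated cells and stands for both replicates, so neither a spread between replicates nor a change upon ZBTB21 loss was analysed here. The cells were grown on irradiated mouse embryonic fibroblasts, and the labels give the untreated samples as V6.5 cells although the treatment text they share with the others speaks of degron cells. A peak lay within 1 kb of a TSS in 4 of 8 stem cell genes, beside 29.9% of all protein-coding genes. Pou5f1, Nanog, Zfp42 and Tbx3 had one, and Sox2, Klf4, Esrrb and Tfcp2l1 had none. It lay there in 1 of 6 fibroblast genes, Pdgfra, which leaves Col1a1, Col1a2, Col3a1, Twist2 and Prrx1 without one. The part of feeder cells in any peak was not tested.

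The list holds 41014 peaks in mm10 coordinates, each with a score between 540 and 953 (median 696) that was used only to rank peaks within the list. A higher score was read as a peak that recurred better between replicates, since 540 is the scaled score that the IDR software gives at a threshold of 0.05. This reading comes from the values alone. No read depth was analysed here, so a gene without a listed peak may still have had accessible DNA below the calling threshold.

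Of the ribosomal protein genes, 53.9% had a peak within 1 kb of a TSS (41 of 76, 95% Wilson interval 42.8 to 64.7%), beside 29.9% of all protein-coding genes. For 21.1% the nearest peak lay 1 to 5 kb away (16 of 76, interval 13.4 to 31.5%), beside 11.1% of all protein-coding genes. No peak lay within 5 kb of 25% (19 of 76, interval 16.6 to 35.8%), beside 59.0% of all protein-coding genes. The intervals cover counting error over genes only. Because genes were chosen with these classes known, the shares are descriptions and no p-value was computed.

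The 27 large subunit genes with a promoter peak included Rplp0, Rplp2, Rpl4, Rpl6, Rpl8, Rpl10, Rpl11, Rpl13, Rpl15, Rpl18, Rpl19, Rpl21, Rpl23a, Rpl24, Rpl26, Rpl27, Rpl28, Rpl29, Rpl31, Rpl34, Rpl35, Rpl36, Rpl36a, Rpl38, Rpl39 and Rpl41. The 14 small subunit genes with one included Rps2, Rps6, Rps7, Rps9, Rps13, Rps15a, Rps16, Rps19, Rps21, Rps24, Rps27 and Rps27a. Nearest peaks between 1 and 5 kb belonged to 7 large subunit genes (Rplp1, Rpl12, Rpl13a, Rpl14, Rpl17, Rpl22 and Rpl32) and to 9 small subunit genes (among them Rps4x, Rps10, Rps12, Rps14, Rps15, Rps23, Rps25 and Rps26). No peak within 5 kb was listed for 12 large subunit genes (Rpl3, Rpl5, Rpl7, Rpl7a, Rpl9, Rpl10a, Rpl23, Rpl27a, Rpl30, Rpl35a, Rpl37 and Rpl37a) and 7 small subunit genes (among them Rpsa, Rps3, Rps18, Rps20, Rps28 and Rps29). The map of peaks along the named genes shows where they fall.

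**Figure D1:**
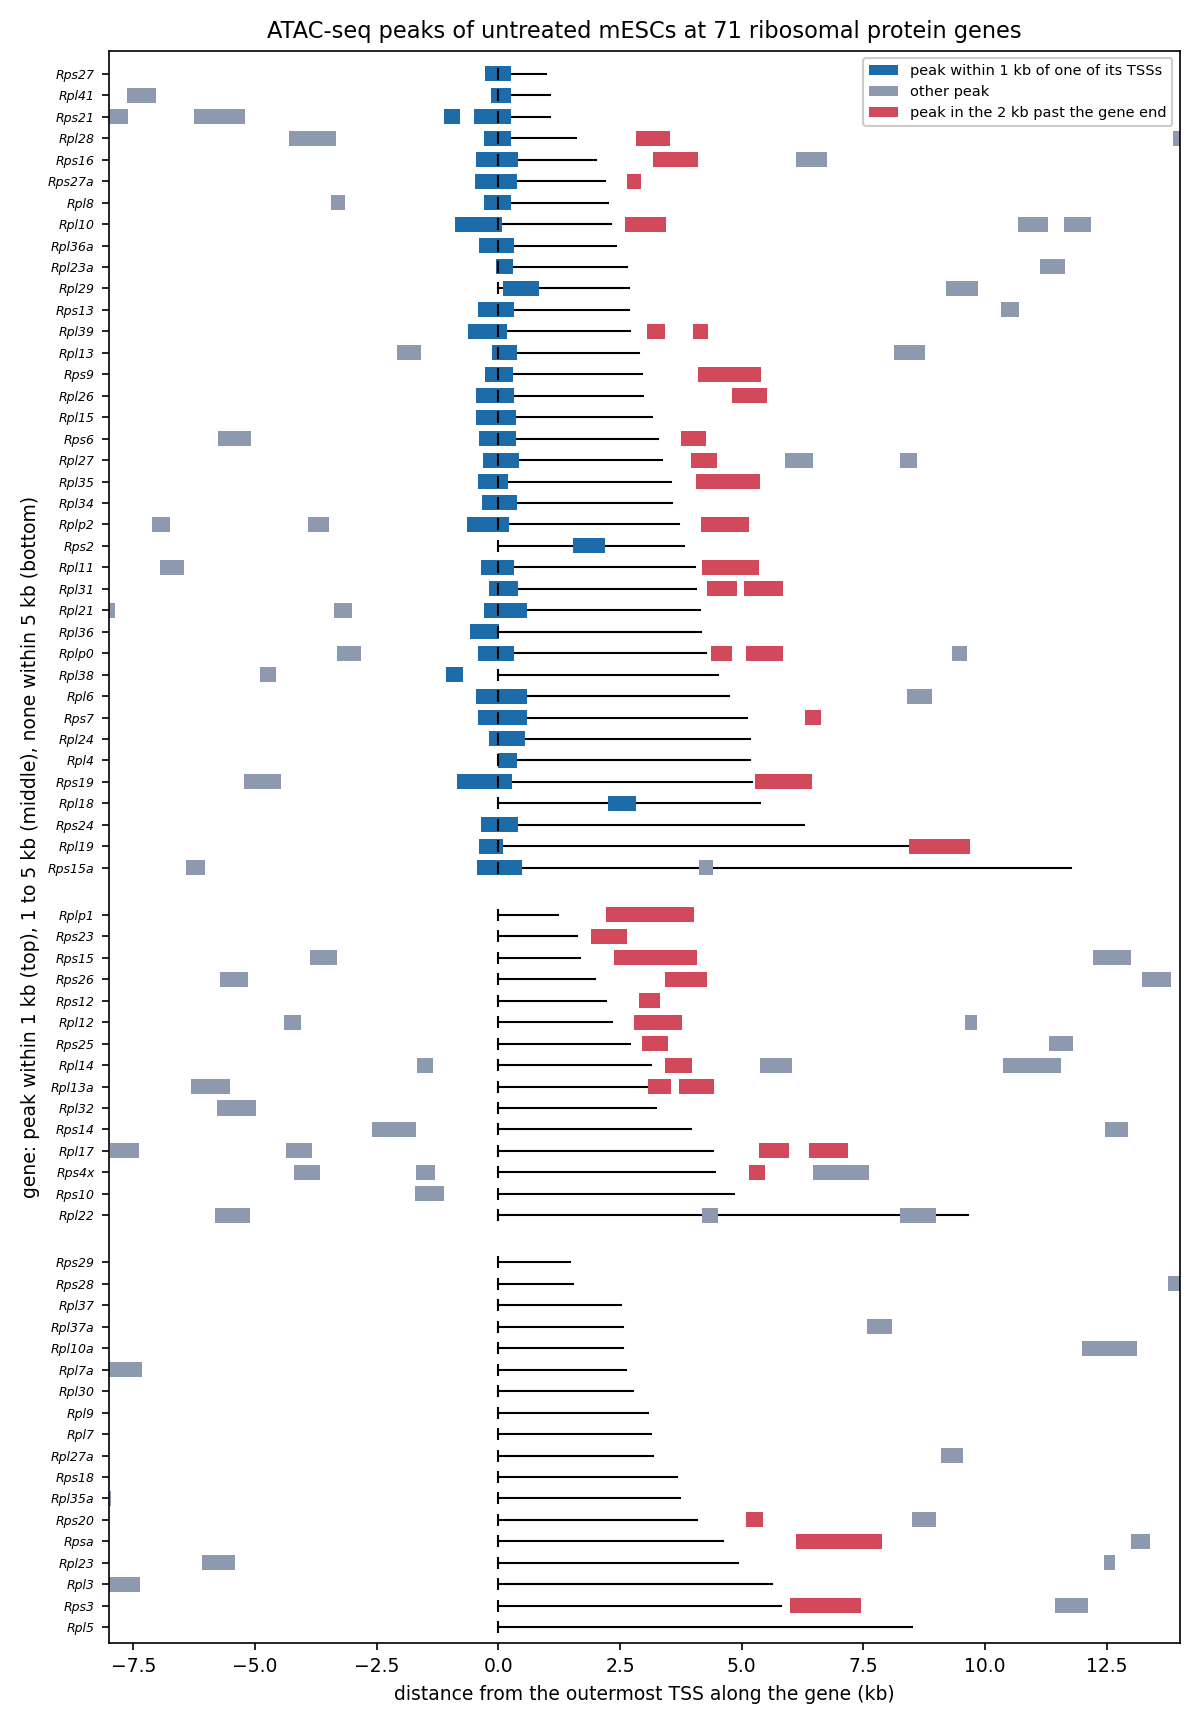
Each row is 1 ribosomal protein gene, drawn from its outermost TSS (tick at 0) along the gene in kb, with the gene as a black line, and bars are ATAC-seq peaks of untreated mESCs. Blue bars mark peaks within 1 kb of any TSS of the gene, in 38 of the 71 genes drawn, most of them over the outermost TSS though not in Rpl18, Rps2, Rpl29 and Rpl38, and red bars mark the peaks that overlap the 2 kb past the gene end in 31 genes.

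The limits ran through members that lay close together. Rpl38 was the member farthest from its peak among those within 1 kb, at 720 bp, and Rps10 was the nearest beyond it, at 1114 bp, followed by Rps4x at 1295 bp and Rpl14 at 1337 bp. At the outer limit, Rpl32 stood inside at 4975 bp and Rps20 outside at 5087 bp, with Rpl23 next at 5410 bp. Of the 41 genes with a promoter peak, 40 had a TSS inside the peak itself (97.6%, interval 87.4 to 99.6%), which was the case for 5665 of the 6510 protein-coding genes with a promoter peak (87%). The exception was Rpl38.

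Promoter sequences are printed here for 7 members that stand for the classes, from RefSeq on GRCm38.p6, along the strand of the gene and from 250 bases before the TSS to 50 bases from it, so that the TSS is base 251. Capitals mark the longest run of pyrimidines within 25 bases of the TSS and matches, on either strand, to CCGGAAG (the core bound by ETS factors such as GABPA), GGGCGG (the GC box of the SP and KLF factors), AAGATGGC (YY1), CACGTG (the E-box of MYC and USF), GCGCATG (part of the NRF1 motif) and TATAAA (the TATA box). The first 2 had the highest peak scores, Rpl15 had an ATAC-seq and a ZBTB21 peak, Rps10 stood just beyond 1 kb, and the last 3 had no peak within 5 kb:
Rpl27 (within 1 kb, chr11:101441995-101442294, + strand): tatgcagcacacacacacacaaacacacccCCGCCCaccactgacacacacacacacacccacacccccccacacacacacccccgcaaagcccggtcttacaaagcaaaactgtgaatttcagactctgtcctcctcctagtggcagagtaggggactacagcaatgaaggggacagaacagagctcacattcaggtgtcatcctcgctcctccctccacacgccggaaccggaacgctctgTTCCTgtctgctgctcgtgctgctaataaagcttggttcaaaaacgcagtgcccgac
Rps21 (within 1 kb, chr2:180257129-180257428, + strand): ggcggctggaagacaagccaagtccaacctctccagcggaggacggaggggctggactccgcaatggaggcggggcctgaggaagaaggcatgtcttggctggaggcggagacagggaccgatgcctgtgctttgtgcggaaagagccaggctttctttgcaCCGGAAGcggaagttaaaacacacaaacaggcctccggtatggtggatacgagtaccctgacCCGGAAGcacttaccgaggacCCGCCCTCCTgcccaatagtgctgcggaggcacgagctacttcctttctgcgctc
Rpl15 (within 1 kb, chr14:18270937-18271236, - strand): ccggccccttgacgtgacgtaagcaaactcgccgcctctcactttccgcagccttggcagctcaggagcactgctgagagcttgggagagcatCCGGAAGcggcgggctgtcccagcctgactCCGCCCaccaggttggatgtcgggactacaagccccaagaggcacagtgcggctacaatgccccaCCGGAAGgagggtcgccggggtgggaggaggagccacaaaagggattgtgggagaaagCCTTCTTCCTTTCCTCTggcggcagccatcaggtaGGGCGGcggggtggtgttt
Rps10 (1 to 5 kb, chr17:27635195-27635494, - strand): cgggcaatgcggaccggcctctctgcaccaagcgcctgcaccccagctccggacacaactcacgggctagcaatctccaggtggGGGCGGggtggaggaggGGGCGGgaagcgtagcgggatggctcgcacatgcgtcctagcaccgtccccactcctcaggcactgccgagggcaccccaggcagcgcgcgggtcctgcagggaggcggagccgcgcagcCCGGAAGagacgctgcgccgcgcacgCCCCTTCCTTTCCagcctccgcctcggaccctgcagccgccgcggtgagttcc
Rpl7a (none within 5 kb, chr2:26910557-26910856, + strand): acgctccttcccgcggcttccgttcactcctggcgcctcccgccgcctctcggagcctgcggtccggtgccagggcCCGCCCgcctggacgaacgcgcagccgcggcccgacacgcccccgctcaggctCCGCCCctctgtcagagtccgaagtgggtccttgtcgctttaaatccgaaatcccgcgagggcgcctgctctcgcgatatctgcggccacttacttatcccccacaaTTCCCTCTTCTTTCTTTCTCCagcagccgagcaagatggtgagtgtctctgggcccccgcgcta
Rpl27a (none within 5 kb, chr7:109518945-109519244, + strand): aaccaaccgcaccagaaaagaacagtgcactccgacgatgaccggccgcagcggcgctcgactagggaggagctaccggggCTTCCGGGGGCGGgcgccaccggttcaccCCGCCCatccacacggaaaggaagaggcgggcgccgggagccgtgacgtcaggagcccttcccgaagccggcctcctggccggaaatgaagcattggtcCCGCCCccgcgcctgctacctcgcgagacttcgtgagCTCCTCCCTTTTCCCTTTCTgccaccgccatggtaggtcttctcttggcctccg
Rps18 (none within 5 kb, chr17:33955616-33955915, - strand): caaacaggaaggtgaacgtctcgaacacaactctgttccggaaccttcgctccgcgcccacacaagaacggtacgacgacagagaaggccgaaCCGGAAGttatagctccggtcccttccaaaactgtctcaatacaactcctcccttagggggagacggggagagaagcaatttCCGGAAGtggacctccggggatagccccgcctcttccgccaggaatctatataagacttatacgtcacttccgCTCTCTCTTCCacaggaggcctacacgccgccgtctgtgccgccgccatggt

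Both a promoter with a peak and one without could carry the same marks in its sequence. The pyrimidine run at the TSS was 17 bases long in Rpl15, which had a peak, 13 in Rps10, and 21 in Rpl7a and 20 in Rpl27a, which had none. CCGGAAG was found 2 times in Rps21 and Rpl15 and also 2 times in Rps18, whose nearest peak lay 12981 bp away. It was not found in full in Rpl27, which had the highest score of all and holds only the shorter CCGGAA. A match is a string of letters and no proof of binding.

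The promoter table had an entry for 56 of the 76 genes. CCGGAAG was present in 39.3% of these 56 promoters, beside 11.9% of 17492 protein-coding promoters of the same length. A pyrimidine followed by C at the TSS was found in 32.1% beside 8.39%, and a pyrimidine run of at least 10 bases in 35.7% beside 8.8%. The other motifs were less far apart, with GGGCGG in 58.9% beside 46.4%, AAGATGGC in 8.93% beside 3.21%, GCGCATG in 12.5% beside 4.88%, CACGTG in 8.93% beside 7.93% and TATAAA in 10.7% beside 13.3%. By class, CCGGAAG was found in 15 of 32 promoters with a peak within 1 kb, 3 of 11 with one at 1 to 5 kb and 4 of 13 with none. Since fewer than 80% of the members had an entry, a comparison of the classes on this table is void. The genes without an entry included Rplp1, Rpl3, Rpl7, Rpl8, Rpl17, Rpl21, Rpl23a, Rpl29, Rpl30, Rpl32, Rpl36, Rps14, Rps20, Rps27a and Rps29.

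Base composition could be read from the genome for all 76 genes. The median GC content over the same 300 bases was 56.3% in the genes with a promoter peak, 57.8% in those with a peak at 1 to 5 kb and 59.3% in those with none, and 56.3% over all protein-coding genes. The observed to expected ratio of CpG, which is high in CpG islands, had medians of 0.87, 0.836 and 0.963 in the 3 classes. All protein-coding genes with a promoter peak had a median of 0.714, and those without one 0.448. The ribosomal protein genes without a peak within 5 kb thus had a median CpG ratio above that of protein-coding genes with a promoter peak.

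The large and the small subunit were compared next. Of the 46 large subunit genes, 58.7% had a promoter peak (interval 44.3 to 71.7%), and of the 30 small subunit genes 46.7% (interval 30.2 to 63.9%). The difference of 12 percentage points had a Newcombe interval from -10.4 to 33, so no difference was detectable with this number of genes. At a limit of 2.5 kb in place of 1 kb the difference was -0.29 points. The small subunit had 30% of its genes in the class from 1 to 5 kb and the large subunit 15.2%, with intervals of 16.7 to 47.9% and 7.57 to 28.2%. No peak within 5 kb was found for 26.1% of the large and 23.3% of the small subunit genes.

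Several places in the ribosome held members of more than 1 class. Among the 4 genes of the stalk, the flexible arm that recruits translation factors, Rplp0 had a promoter peak of 727 bp with a score of 768, and Rplp2 one of 871 bp with a score of 887. Rplp1 and Rpl12, the other stalk genes, had their nearest peaks 2206 and 2793 bp away. Of the partners of 5S RNA, which also bind the p53 regulator MDM2, Rpl11 had a promoter peak with a score of 880, whereas the nearest peak of Rpl5 lay 12484 bp upstream. Of the proteins near the peptidyl transferase centre, Rpl10 had a promoter peak with a score of 810 and Rpl3 had none within 7374 bp. Along the exit tunnel, Rpl4 and Rpl39 had promoter peaks with scores of 745 and 663, and the nearest peak of Rpl17 lay 3769 bp away.

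For the ring of proteins around the tunnel exit, where nascent chains meet their first partners, 5 genes were listed. A peak lay within 1 kb at 5 of 5. The list need not hold the whole ring, and Rpl17, counted above along the tunnel with its nearest peak at 3769 bp, was not in it. The scores of the listed genes were 609 for Rpl19, 678 for Rpl23a, 847 for Rpl26, 885 for Rpl31 and 615 for Rpl35. The peak of Rpl19 lay near a predicted TSS only. The pair of proteins at the decoding centre had a promoter peak at 0 of 2 genes, with nearest peaks 2297 bp from Rps15 and 1902 bp from Rps23. At the mRNA entry, Rps2 had a promoter peak with a score of 725 and Rps3 had its nearest peak at 5992 bp. At the mRNA exit and platform, the 6 genes split evenly into the classes. Rps21 had a promoter peak with a score of 940, Rps14 and Rps26 had their nearest peaks at 1702 and 3417 bp, and Rpsa and Rps28 at 6109 and 13768 bp. Rps27a, which encodes a fusion of ubiquitin with a ribosomal protein, had a promoter peak of 881 bp with a score of 581. With 1 to 6 genes to a place, the counts say nothing about the places themselves.

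Of 11 members whose human counterparts are mutated in Diamond-Blackfan anemia, a failure of red cell formation, 6 had a promoter peak (Rps7, Rps19, Rps24, Rpl11, Rpl15 and Rpl26). Rps10 and Rps26 had their nearest peak at 1 to 5 kb, and Rpl5 and Rpl35a were among the 3 with none within 5 kb. This share of 54.5% (interval 28 to 78.7%) lies beside the 53.9% of all members and the 29.9% of all protein-coding genes.

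Other families of housekeeping genes gave similar shares of promoter peaks. A peak lay within 1 kb of a TSS in 43 of 78 mitochondrial ribosomal protein genes (55.1%, interval 44.1 to 65.7%), 22 of 39 proteasome subunit genes (56.4%, interval 41 to 70.7%) and 25 of 56 translation initiation factor genes (44.6%, interval 32.4 to 57.6%). The class from 1 to 5 kb held 3 of the 78 mitochondrial ribosomal protein genes (3.85%, interval 1.32 to 10.7%), 3 of the 39 proteasome genes (7.69%, interval 2.65 to 20.3%) and 0 of the 56 initiation factor genes (upper bound of the interval 6.42%), and 21.1% of the cytosolic ribosomal protein genes (interval 13.4 to 31.5%), whose interval overlaps that of the proteasome genes. No peak within 5 kb was listed for 41% of the mitochondrial ribosomal protein genes (interval 30.8 to 52.1%), 35.9% of the proteasome genes (22.7 to 51.6%) and 55.4% of the initiation factor genes (42.4 to 67.6%), beside 25% of the members (16.6 to 35.8%).

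**Figure D2:**
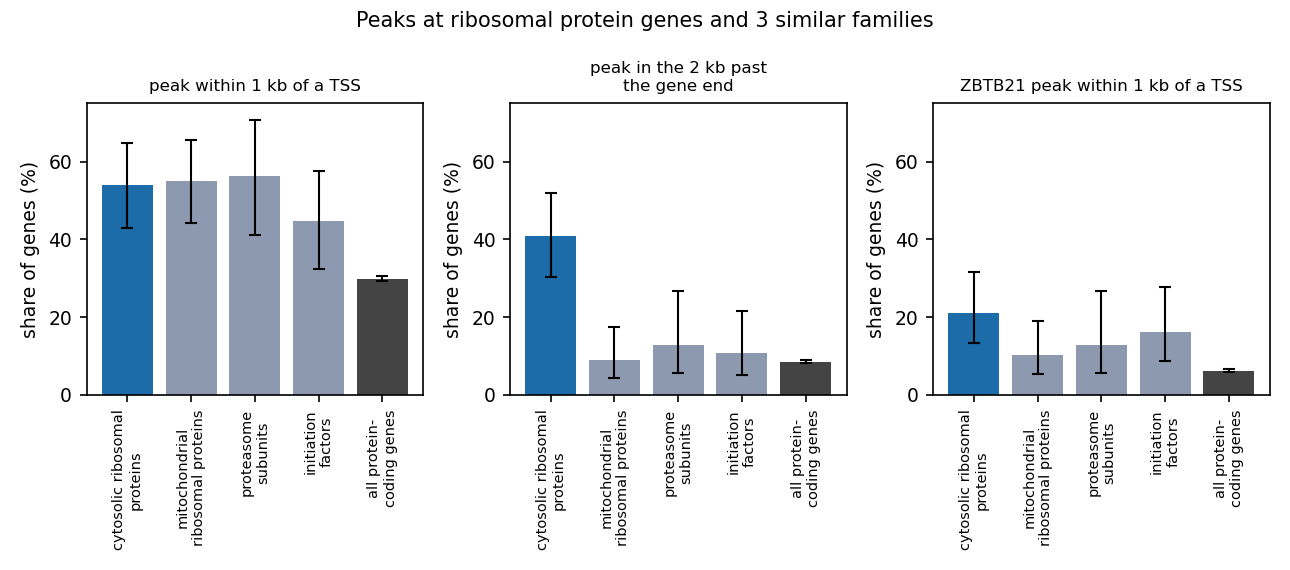
Bars give the share of genes (%) with an ATAC-seq peak at most 1 kb from a TSS (left), an ATAC-seq peak in the 2 kb past the gene end (middle) and a ZBTB21 peak within 1 kb of a TSS (right), for the 76 members, 3 similar families and all protein-coding genes, with 95% Wilson intervals. The cytosolic ribosomal protein genes stand level with the other families in the left panel (53.9%) and above them in the middle one (40.8%).

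The position of those nearest peaks was then followed along the genes. Of the 16 nearest peaks between 1 and 5 kb, 10 lay downstream of the TSS and 6 upstream. That split was not computed over all protein-coding genes. Many of the downstream peaks began in the 2 kb past the annotated end of the gene. This was seen in the map of these same peaks, so the counts that follow are a description chosen after their values were seen. A peak that overlapped the 2 kb past the gene end, and that lay more than 1 kb from each TSS of the gene, was found for 31 of the 76 ribosomal protein genes (40.8%, interval 30.4 to 52%), beside 8.48% of all protein-coding genes. It was found for 8.97% of the mitochondrial ribosomal protein genes (interval 4.42 to 17.4%), 12.8% of the proteasome genes (5.6 to 26.7%) and 10.7% of the initiation factor genes (5 to 21.5%). Among the 8724 protein-coding genes no longer than the longest member (11774 bp), the share was 8.55%, and with a promoter peak required it was 13.7%. In a window of the same size before the gene, from 1 to 3 kb upstream of the outermost TSS, 13.2% of the members had a peak (interval 7.31 to 22.6%), beside 6.31% of all protein-coding genes. Where peaks within 1 kb of a TSS of another gene were set aside, 23 members kept a peak past their end (30.3%, interval 21.1 to 41.3%), beside 5.83% of all protein-coding genes.

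A peak past the gene end was about as frequent with a promoter peak as without. It was found for 17 of the 41 members with a promoter peak (41.5%, interval 27.8 to 56.6%) and 14 of the 35 without one (40.0%, interval 25.6 to 56.4%). Among all protein-coding genes it was 11.1% of those with and 7.37% of those without a promoter peak. By subunit it was 16 of 46 large (34.8%, interval 22.7 to 49.2%) and 15 of 30 small subunit genes (50%, interval 33.2 to 66.8%). Neither kind of peak was found for 21 members, all among the 35 without a promoter peak. Of 21774 protein-coding genes, 15264 had no promoter peak, and 1125 of these had a peak past the gene end. Most protein-coding genes thus had neither kind, so a lack of both is not particular to the members.

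**Figure D3:**
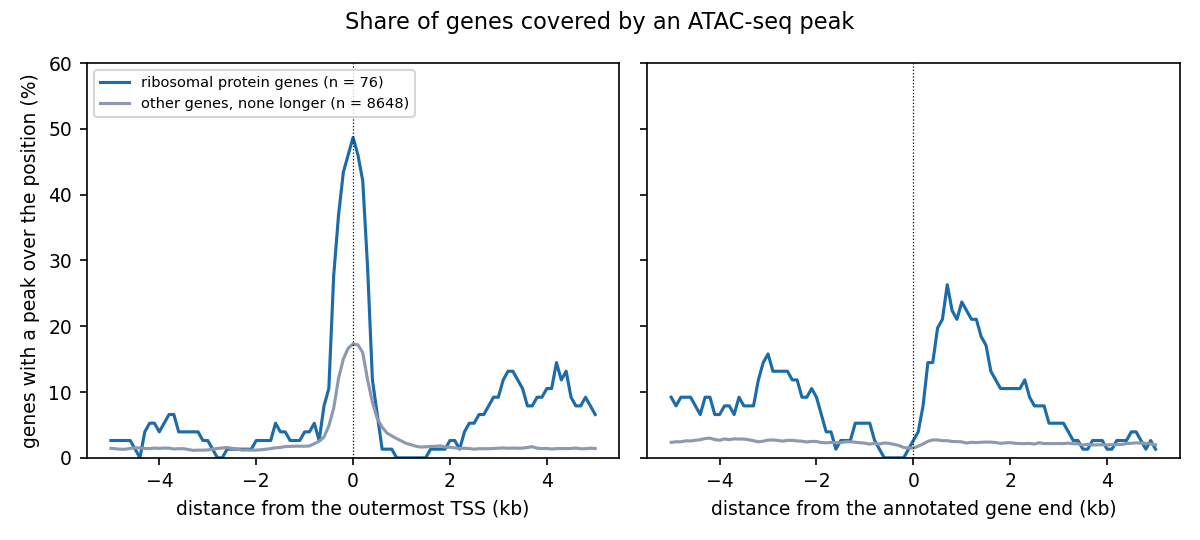
The share of genes (%) with an ATAC-seq peak over each position is plotted against the distance in kb from the outermost TSS (left) and from the annotated gene end (right), in steps of 100 bp, for 76 ribosomal protein genes and 8648 other protein-coding genes no longer than the longest of them. The ribosomal protein genes reach 48.7% at the TSS and 26.3% at 700 bp past the gene end, where the other genes stay near their highest value past the end, 2.73%.

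At the TSS the share of ribosomal protein genes covered by a peak was 48.7%, and past the gene end it was highest at 700 bp, with 20 of 76 genes (26.3%). The other protein-coding genes up to 11774 bp long reached 17.3% at the TSS and no more than 2.73% past the end. The longest member set that limit, and the lengths were not matched further (the median length of the members was 3169.5 bp). At the annotated end itself 2 of 76 ribosomal protein genes were covered (2.63%).

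Several of these peaks were among the widest of the whole list. The peak past Rplp1 was 1805 bp wide, wider than 99.8% of all peaks, began 979 bp past the gene end and had a score of 660. Past Rpsa, the laminin receptor gene, lay a peak of 1770 bp that began 1506 bp after the end, with a score of 610. The peak past Rps15 measured 1701 bp and the one past Rps3 1451 bp, and they began 692 and 179 bp after the ends with scores of 587 and 592. These 4 peaks were at least 1400 bp wide, as were 459 peaks of the list (1.12%). At least 1000 bp were reached by 9 of the 36 peaks past gene ends, 3 of the 43 promoter peaks and 6.21% of the list. The peaks past Rps15 and Rpsa also lay within 1 kb of TSSs of Apc2 and Gm5922, while those past Rplp1 and Rps3 had no TSS of another gene that near.

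The other 10 genes without a promoter peak had narrower peaks past their ends. The peak past Rpl12 was 987 bp wide and began 460 bp after the end (score 651), and that past Rps23, whose product lies at the decoding centre, was 740 bp wide and began 292 bp after the end (score 672). Rps25 had a peak of 533 bp from 255 bp after the end (score 633), Rps26 one of 865 bp from 1440 bp (score 659), Rps12 one of 427 bp from 684 bp (score 726) and Rps20 one of 347 bp from 1016 bp (score 701). Rpl14 and Rps4x also had a peak past the end, from 284 and 699 bp after it, although their nearest peak to a TSS lay upstream. Rpl17 had 2 such peaks, both within 1 kb of a TSS of BC031181. The pair of peaks past Rpl13a lay within 1 kb of a TSS of another gene that is itself a member. Both are therefore counted among the promoter peaks of the members as well.

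Of the 17 genes with a peak at both ends, 12 had the higher score at the promoter. Rpl27 had scores of 942 at the promoter and 728 past the end, Rpl11 of 880 and 605, and Rps6 of 871 and 581. The order was reversed in Rplp0, Rpl19, Rpl35, Rps7 and Rps19. In Rplp0 this rests on an end peak with a score of 863 that lay within 1 kb of a TSS of Gcn1. The promoter peak of Rpl19, with a score of 609, lay near a predicted TSS only and at a TSS of Cacnb1. The end peaks of Rpl19, Rpl35, Rps7 and Rps19 had no TSS of another gene within 1 kb. At Rps19, the gene most often mutated in Diamond-Blackfan anemia, the peak past the end was 1177 bp wide with a score of 824, and the promoter peak was 1134 bp wide with a score of 722. Over all 36 peaks past gene ends the median score was 656 (lowest 542, highest 903), and 24 of the 36 scored below the list median of 696. Of the 43 promoter peaks 9 did. The peak that scored 903 belongs to the pair past Rpl13a, which is counted in both groups. When only peaks above the list median were used, 14.5% of the members had a peak past the end, beside 4.62% of all protein-coding genes.

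The sequence under the peaks past gene ends was unlike that under the promoter peaks. The pair past Rpl13a is in both groups. Over the central 300 bases of each peak, the median CpG ratio was 0.181 in the 36 peaks past gene ends (quartiles 0.0999 and 0.28), 0.893 in the 43 promoter peaks (0.695 and 0.963) and 0.248 in the whole list. The median GC content was 49.8%, 58.3% and 52.7%. CCGGAAG was found in 1 of 36, 15 of 43 and 5.08% of the list, and GGGCGG in 3 of 36, 25 of 43 and 22.3% of the list. Bases in repeats, as soft-masked in the RefSeq assembly, made up a median of 14.7% in the peaks past gene ends and 0% in the promoter peaks, beside 8.33% in the list. In the 24 peaks past gene ends with no TSS of another gene within 1 kb, the median CpG ratio was 0.151. The central 300 bases of 4 of these peaks are printed, from GRCm38.p6 and along the strand of the gene, as examples of regions with few CpG, from 2 genes without (Rplp1 and Rps3) and 2 with a promoter peak. They hold none of the 6 motifs, so no base is in capitals:
Rplp1 end (chr9:61911253-61911552, - strand): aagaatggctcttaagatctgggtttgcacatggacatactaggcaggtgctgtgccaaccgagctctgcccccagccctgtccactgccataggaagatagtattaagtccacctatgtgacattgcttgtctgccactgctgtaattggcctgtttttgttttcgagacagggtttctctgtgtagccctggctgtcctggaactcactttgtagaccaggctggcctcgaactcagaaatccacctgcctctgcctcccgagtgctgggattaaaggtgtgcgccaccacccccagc
Rps3 end (chr7:99476843-99477142, - strand): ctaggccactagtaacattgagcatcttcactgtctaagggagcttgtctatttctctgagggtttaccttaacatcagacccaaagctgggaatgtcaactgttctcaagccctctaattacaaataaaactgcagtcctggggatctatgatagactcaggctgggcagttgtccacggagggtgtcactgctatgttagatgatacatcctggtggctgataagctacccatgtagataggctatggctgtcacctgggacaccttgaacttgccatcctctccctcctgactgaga
Rps19 end (chr7:24890298-24890597, + strand): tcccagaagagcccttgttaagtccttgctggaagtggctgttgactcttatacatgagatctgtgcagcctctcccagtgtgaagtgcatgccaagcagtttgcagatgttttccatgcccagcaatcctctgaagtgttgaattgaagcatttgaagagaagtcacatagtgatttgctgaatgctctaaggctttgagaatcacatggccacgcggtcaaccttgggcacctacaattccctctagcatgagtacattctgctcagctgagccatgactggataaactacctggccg
Rpl35 end (chr2:39000266-39000565, - strand): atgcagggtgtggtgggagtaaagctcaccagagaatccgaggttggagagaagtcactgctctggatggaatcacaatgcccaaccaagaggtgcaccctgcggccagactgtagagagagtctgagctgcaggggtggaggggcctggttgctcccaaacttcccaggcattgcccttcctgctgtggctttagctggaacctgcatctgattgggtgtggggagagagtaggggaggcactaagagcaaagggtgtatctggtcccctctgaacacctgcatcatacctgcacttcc

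In Rps19 and Rpl35 these 300 bases held 0% repeats and CpG ratios of 0.174 and 0.0859, whereas in Rplp1 56% of them were soft-masked. No motif in this window says only that these letters were not found there.

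Beside all promoter peaks, those of the ribosomal protein genes were ordinary in width and somewhat high in score, as were those of similar families. The 43 peaks within 1 kb of a TSS had a median width of 722 bp (quartiles 570 and 820, range 336 to 1134) and a median score of 767 (720 and 844, range 569 to 942). All 6598 promoter peaks of protein-coding genes had medians of 737 bp (579 and 952) and 735 (642 and 825), and the whole list 547 bp and 696. The median score was 776 for promoter peaks of mitochondrial ribosomal protein genes, 790 for proteasome genes and 747 for initiation factor genes. The large subunit peaks had medians of 709 bp and a score of 768, and the small subunit peaks 761 bp and 756, with quartiles of 564 and 768 bp in the large and 646 and 875 bp in the small subunit, so that the groups overlapped widely.

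**Figure D4:**
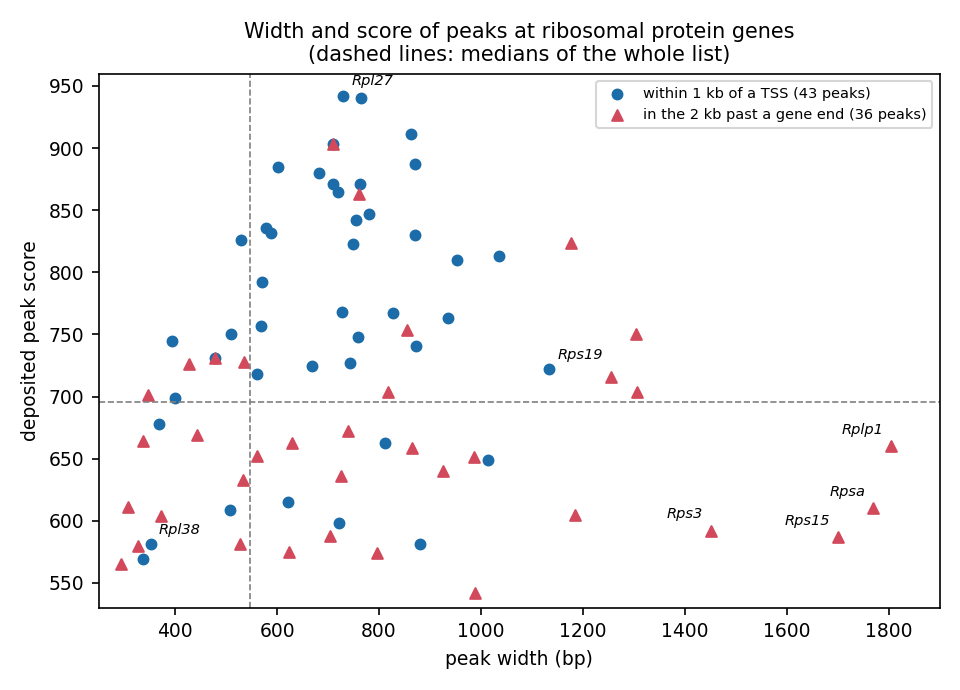
Each point is 1 ATAC-seq peak at a ribosomal protein gene, with its width (bp) on the x axis and its deposited score on the y axis, for 43 peaks within 1 kb of a TSS (blue circles) and 36 peaks past a gene end (red triangles), and dashed lines are the medians of the whole list (547 bp and 696). The peaks past Rplp1, Rpsa, Rps15 and Rps3 lie far to the right with scores of 587 to 660, and 9 promoter peaks lie below the list median score. The pair of peaks past Rpl13a is drawn in both groups, since it also lies within 1 kb of a TSS of another member.

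Taking the promoter peak nearest to a TSS in each gene, the highest scores were those of Rpl27 with 942 and Rps21 with 940, and the lowest those of Rpl38 and Rps27a with 581 each and Rpl34 with 598. The widest of these peaks were those of Rps19 with 1134 bp, Rpl6 with 1036 bp and Rps7 with 1013 bp. The narrowest of them were those of Rpl38 with 352 bp, Rpl23a with 368 bp and Rpl4 with 393 bp. A second promoter peak was listed for Rps21, of 336 bp with a score of 569 beside one of 765 bp with 940. In 3 genes the class rests on a predicted transcript. From curated TSSs, the peaks of Rpl19, Rpl36 and Rpl38 lay 3512, 3293 and 1482 bp away, and the first 2 of these peaks lay at TSSs of Cacnb1 and Micos13.

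The 19 genes with no peak within 5 kb had a median distance of 9098 bp to the nearest one, beside 27587 bp for all 12855 protein-coding genes of that class. The 5 farthest were Rps29 at 20101 bp, Rpl37 at 18221 bp, Rpl9 at 16465 bp, Rps28 at 13768 bp and Rps18 at 12981 bp. Within 50 kb of their TSS, the members of this class had a median of 4 peaks and a lowest value of 1, beside 6 for members with a promoter peak and 1 for all protein-coding genes with none within 5 kb. In 6 of the 19 genes the nearest peak lay within 1 kb of a TSS of another gene. That of Rpl7a, which scored 946, lay at Surf6, that of Rpl3 at Syngr1, that of Rpl30 at Erich5 and that of Rps28 at Kank3. The share over all protein-coding genes of the class was not computed for the count of 6.

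ZBTB21 is a zinc finger protein of the ZBTB family of DNA-binding factors. A ZBTB21 peak from ChIP-seq against the GFP tag of ZBTB21-degron mESCs, a line other than that used for the ATAC-seq, lay within 1 kb of a TSS in 16 of the 76 genes (21.1%, interval 13.4 to 31.5%), beside 6.17% of all protein-coding genes. It was 10.3% of the mitochondrial ribosomal protein genes (interval 5.29 to 19%), 12.8% of the proteasome genes (5.6 to 26.7%) and 16.1% of the initiation factor genes (8.69 to 27.8%), whose intervals all overlap that of the members. The shares were 21.7% in the large (10 of 46) and 20% in the small subunit (6 of 30). Of the 41 members without a TSS of another gene, coding or not, within 1 kb, 7 had a ZBTB21 peak. For all protein-coding genes without such a neighbour the share was not computed. For the rest of the 16 members, the gene to which the ZBTB21 peak belongs was not tested.

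A TSS lay inside the ZBTB21 peak in each of these 16 genes. In 10 of them, among which were Rpl4, Rpl15, Rpl18, Rpl21, Rpl26, Rpl34, Rpl41, Rps2 and Rps16, the ZBTB21 peak overlapped an ATAC-seq peak. In the other 6 it overlapped none. These were Rpl9, Rpl23, Rpl27a, Rpsa and Rps29, with no ATAC-seq peak within 5 kb, and Rps14, with its nearest at 1702 bp. By class this is 10 of 41, 1 of 16 and 5 of 19 genes (24.4%, 6.25% and 26.3%, with intervals of 13.8 to 39.3%, 1.11 to 28.3% and 11.8 to 48.8%). A promoter peak in ATAC-seq was found for 62.5% of the 16 members with a ZBTB21 peak (interval 38.6 to 81.5%) and for 52% of all 1344 protein-coding genes with one. Rps29, the member farthest from any ATAC-seq peak, had a ZBTB21 peak of 1706 bp centred 8 bp before its TSS. The one at Rpl9 was 959 bp wide, that at Rpl23 1094 bp, that at Rpl27a 544 bp and that at Rpsa 371 bp. Rps29 also had a TSS of the noncoding gene Rn7s1 within 1 kb of its own.

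**Figure D5:**
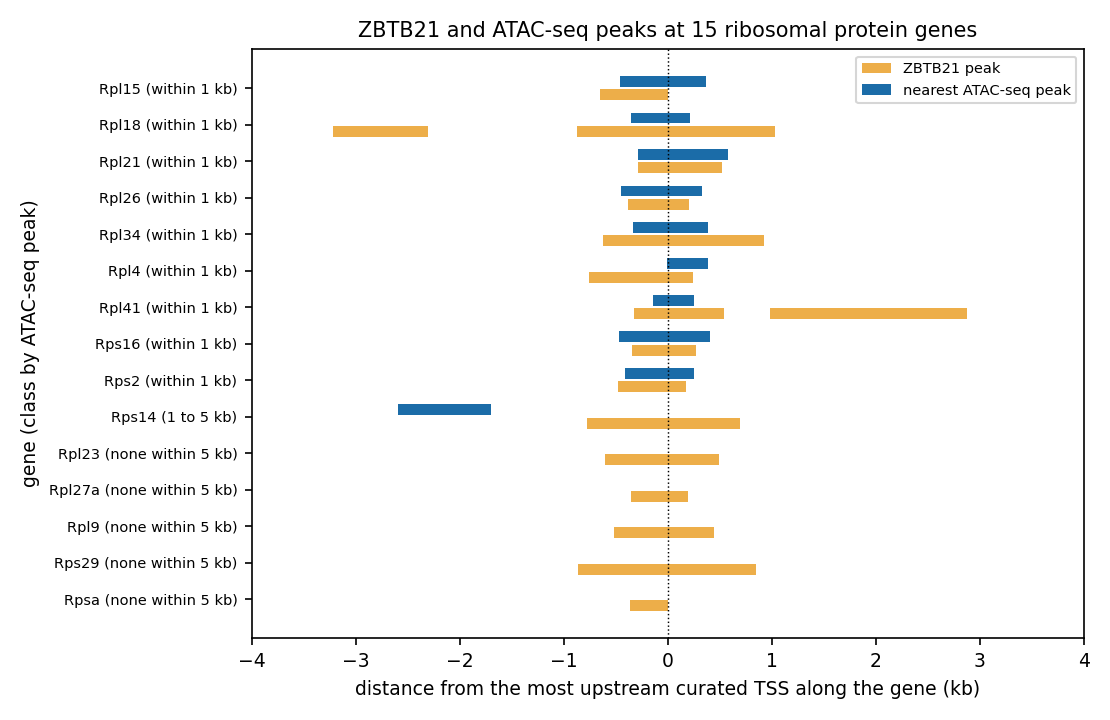
ZBTB21 peaks (yellow) and the nearest ATAC-seq peak (blue) are drawn along 15 ribosomal protein genes with a ZBTB21 peak within 1 kb of a TSS, against the distance in kb from the most upstream curated TSS. In 9 of the genes drawn both kinds of peak overlap at the TSS, and in 6 genes (Rps14 and the 5 lowest rows) the ZBTB21 peak stands without an ATAC-seq peak over it.

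The surroundings of the genes were described by class. Another gene, coding or not, had a TSS within 1 kb of 15 of 41 members with a promoter peak, 8 of 16 with a peak at 1 to 5 kb and 12 of 19 with none. Such neighbours include small nucleolar RNA genes inside the member itself, as Snord43 in Rpl3. With protein-coding neighbours only, the counts were 9 of 41, 2 of 16 and 6 of 19. A small nucleolar RNA gene lay inside 13 of 41, 6 of 16 and 10 of 19. The shares over all protein-coding genes were not computed for these counts. Ribosomal protein genes have many pseudogenes, copies of the mRNA elsewhere in the genome that can draw reads away from the source gene, and 62 of the 76 members had at least 1 annotated pseudogene. Of the 32-base words within 500 bp of the TSS, the median share found once in the genome was 93.2% in the members with a promoter peak, 96.1% in those with a peak at 1 to 5 kb and 96.2% in those with none. The lowest shares were 59.3% in Rps29, 68.8% in Rpl24, which had a promoter peak, and 69.5% in Rpl37a. The part of read mapping in the missing peaks was not tested.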

How the data were processed

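ATAC-seq was performed in 6 samples, and 1 peak list, of the untreated V6.5 cells (2 replicates), was analysed here. The authors deposited for each of its 41014 peaks an mm10 position and a score. Per the labels, the submitters' processing notes name cutadapt 2.6, Bowtie2 2.3.5.1 and MACS2 2.1.1, with no role given; the shift of Tn5 cut sites, the calling of ATAC-seq peaks and the pooling of replicates are not given in the sources used here. No depth per sample was analysed. Labels put samples into groups.

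Members and lists were chosen with earlier results of these data known. Protein-coding genes and the TSSs of all their transcripts came from RefSeq on GRCm38.p6, the assembly that mm10 names, and 0 peaks ended beyond a chromosome. Distance ran from a TSS to the nearest edge of a peak (0 inside it). ZBTB21 positions were the 1827 mESC peaks in the supplement of the study. Shares have Wilson 95% intervals, which cover counting error only. No test was made: there is 1 list, and genes are not replicates. The named genes were those nearest the limits, with extreme scores, widths or distances, with a ZBTB21 peak, with more than 1 promoter peak, or in lists of ribosomal places and of Diamond-Blackfan anemia. Some members counted in the shares are not reported by name here. The window of 2 kb past the gene end was chosen after seeing the peaks. Counting and motif search were tested on simulated data with Python 3.11.15, numpy 2.4.6, pandas 2.3.3 and scipy 1.17.1. Alternatives were the distance, the TSS set, the score, the peak centre, merging within 500 bp, a wider gene set, genes with neighbours, and autosomes.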

Additional observations from a re-analysis of the deposited data

How the results depend on the processing

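Of 57 values of 7 results under 10 alternatives, 55 stayed within the interval of the main share or difference, the spread of widths and scores, or 1.5 times the count. The other 2 came from keeping only peaks that scored above 696, the median, with which 11.8% of the genes had their nearest peak at 1 to 5 kb and 44.7% had none within 5 kb. The share with a promoter peak was lowest with that list, 43.4%, beside 19.4% of all protein-coding genes. It was highest, 63.4%, in the 41 members without a TSS of another gene within 1 kb. Neighbours here include noncoding genes, also small nucleolar RNA genes inside the member. For that setting the share of all protein-coding genes was not computed. Its count of members with a ZBTB21 peak, 7 beside 16 in the main setting, is not among the 57 values. That count falls outside the limit of 1.5 times. Curated TSSs gave 50%. For the share with a peak past the gene end, chosen after seeing the data, 2 of 5 alternatives stayed within the interval, 44.7% with 5 kb, where the share of all protein-coding genes was 17.5%, and 38.9% on autosomes. The others gave 30.3% with 1 kb (4.98% of all protein-coding genes), 30.3% with peaks that have no TSS of another gene within 1 kb, and 14.5% with scores above the median. Each of the 3 narrows the peaks or the window that can count. The 1 list limits all of this: no depth, no replicate values and no degron cells. No paired analysis was possible because 1 list stands for both replicates, with no values of either, and the result comes from no test, and for the same reason no replicate could be left out.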
